A study of Homo sapiens with 6 samples.

Results

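The S100 proteins and the annexins are 2 families of human genes whose products bind calcium. They were taken from the deposited expression table by symbol, as every entry named S100 followed by a letter and a number or by a letter alone, and every entry named ANXA followed by a number. This rule found 33 of the 24000 entries of the table, 20 of them S100 genes and 13 of them annexins. The 13 annexin entries stand for 12 genes, because ANXA8 is listed at 2 places on chromosome 10. The rule used no measured value.

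S100 proteins are small proteins with a pair of EF-hand loops that hold calcium. Most act as dimers that, once loaded with calcium, grip a target protein inside the cell, and some are released and bind cell-surface receptors such as RAGE (gene AGER) and TLR4. Annexins bind negatively charged phospholipids when calcium is present and take part in membrane repair, vesicle traffic and the organisation of membrane-bound actin. The families meet in complexes in which an S100 dimer bridges a pair of annexins, of which S100A10 with annexin A2 and S100A11 with annexin A1 are the best known.

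RNA was sequenced from 6 tumors of PC-3, a human line of hormone-refractory prostate cancer, implanted in the prostate of nude mice. The 3 tumors of the vehicle group came from mice given vehicle, and the 3 tumors of the WCE group from mice given a standardized extract of the herb Wedelia chinensis by mouth. The labels give 10 weeks of treatment for both groups, no dose and no age of the mice. The study's text gives another duration and differing doses, and describes athymic mice obtained at 6 weeks of age, with males used for implantation. All 6 tumors derive from the same cell line, and nude mice lack mature T cells but keep neutrophils, macrophages, vessels and stroma of their own. The comparison asked how the RNA of these tumors differed after WCE.

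Levels are given in FPKM, the number of sequenced fragments divided by transcript length and by all mapped fragments, which are per length and so can be set in order between genes. Read counts were not analysed here, so the depth is known only as a share of that of vehicle replicate 3. In the other tumors it lay between 25.0% (WCE replicate 1) and 85.2% (WCE replicate 2). A near-identical pair of libraries was found across the groups, vehicle replicate 3 with WCE replicate 1. Over the 22 members with a mean of at least 1 FPKM this pair differed by a median absolute log2 difference of 0.023, and the 14 remaining pairs by medians of 0.16 to 0.59. Entries above 0 in vehicle replicate 3 but not in WCE replicate 1 numbered 1419, and 0 were above 0 in WCE replicate 1 alone. In every other pair, each tumor had at least 329 entries above 0 that the other lacked. WCE replicate 1 thus held no entry that vehicle replicate 3 lacked, and whether these are separate tumors was not tested. Limma and permutation tests with all 6 tumors treat them as separate. If they are not, the same library counts in both groups of those tests. Values without this pair, which leaves 2 against 2, are given beside them for the members and lists described. The PC-3 markers KRT8, KRT18 and VIM were between 192 and 546 FPKM in all 6 tumors, and the prostate secretory genes KLK2 and KLK3 were listed at 0. P-values measure the spread between these tumors, and in bulk RNA fewer cells of a type and less RNA per cell cannot be told apart.

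Both families were expressed strongly, and from few genes. Of the 33 entries, 15 had a mean of at least 100 FPKM over the 6 tumors, 10 of them S100 genes and 5 of them annexins. Summed S100 FPKM was 8832, 13928 and 13264 in vehicle replicates 1 to 3 and 13295, 10995 and 11868 in WCE replicates 1 to 3, between 1.32% and 2.20% of all FPKM in a tumor. Vehicle replicate 1 was the lowest and the other 5 tumors lay closer together. Summed annexin FPKM ran only from 2115 to 2288 over the 6 tumors, or 0.309% to 0.370% of the total. Of the S100 genes, 16 lie in a stretch of chromosome 1 from 151955386 to 153618782, and the others are S100P on chromosome 4, S100Z on chromosome 5, S100B on chromosome 21 and S100G on chromosome X. Positions are those of the table, counted from 1, and the submitters' processing notes name the builds hg19 and mm10 without saying which step used which.

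**Figure D1:**
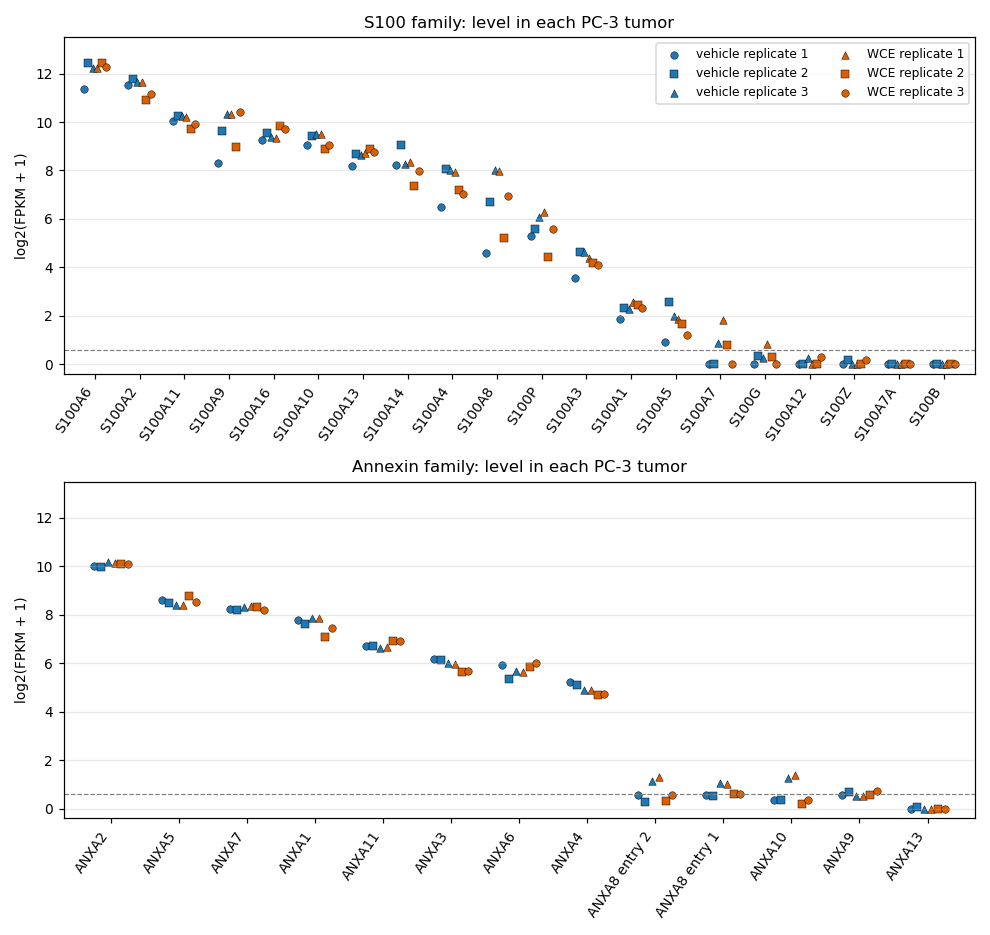
Level of each S100 entry (upper panel) and annexin entry (lower panel) as log2(FPKM + 1), ordered by mean, with 1 point for each of the 6 tumors, vehicle in blue and WCE in orange. The dashed line is at the filter level of 0.5 FPKM, and the entries of ANXA8 that start at 47157984 and 48255225 are entry 1 and entry 2.

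S100A6, also called calcyclin, had the highest mean of either family, was the highest member in 5 of 6 tumors and made up 38.9% of summed S100 FPKM on average (SD 6.86, n = 6). It was at 2597, 5576 and 4801 FPKM in vehicle replicates 1 to 3 and at 4820, 5501 and 4892 FPKM in WCE replicates 1 to 3. Vehicle replicate 1 stood apart, below its own level of S100A2, and the other 5 tumors overlapped. The log2 fold change of WCE over vehicle, here and below on the log2(FPKM + 1) scale, was 0.30 (SE 0.27) with an unadjusted p of 0.307 in limma. The fold change was 0.45 without the near-identical pair and −0.03 without vehicle replicate 1.

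S100A2, a nuclear S100 protein of squamous and basal epithelium that binds p53, was second. It was at 2969, 3521 and 3245 FPKM in the vehicle tumors and at 3244, 1913 and 2278 FPKM in the WCE tumors. WCE replicates 2 and 3 were below all vehicle tumors, while WCE replicate 1 was level with vehicle replicate 3. The mean was 3245 ± 276 FPKM in vehicle and 2478 ± 688 FPKM in WCE (SD, n = 3 each). The log2 fold change was −0.42 (SE 0.20, unadjusted p = 0.0720 and adjusted p = 0.623 in limma). Without the near-identical pair the log2 fold change was −0.63, with an unadjusted p of 0.0162 and an adjusted p of 0.207.

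S100A11, which bridges annexin A1 molecules at membranes, was at 1063, 1218 and 1209 FPKM in vehicle and at 1197, 827 and 972 FPKM in WCE. Again WCE replicates 2 and 3 were the lowest tumors. Its log2 fold change was −0.23 (SE 0.15, unadjusted p = 0.170 in limma), and −0.34 without the near-identical pair (unadjusted p = 0.0737). S100A16, a widely expressed member that binds calcium through a single loop of each chain, went the other way at 607, 744 and 657 FPKM in vehicle and 651, 915 and 829 FPKM in WCE. The groups overlapped through WCE replicate 1, and the log2 fold change was 0.24 (SE 0.15, unadjusted p = 0.152 in limma), and 0.37 without the pair (unadjusted p = 0.0589).

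S100A8 and S100A9 form calprotectin, the calcium-, zinc- and manganese-binding dimer that neutrophils hold in large amounts and that epithelia make under stress. S100A9 was at 318, 793 and 1299.7 FPKM in vehicle and at 1299.8, 505 and 1375 FPKM in WCE. S100A8 was at 23.2, 102 and 255 FPKM in vehicle and at 254, 36.5 and 124 FPKM in WCE. Vehicle replicate 1 and WCE replicate 2 were the lowest tumors for both genes, so each group spanned nearly the whole range. The highest tumor was 10.98-fold above the lowest for S100A8 and 4.33-fold for S100A9. The log2 fold change between groups was 0.30 (SE 0.93, unadjusted p = 0.757) for S100A8 and 0.49 (SE 0.56, unadjusted p = 0.410) for S100A9 in limma, both smaller than their standard error. With the near-identical pair left out they were 0.45 (unadjusted p = 0.616) and 0.73 (unadjusted p = 0.288). S100A8 ranged from −0.62 to 1.08 on the log2 scale when each tumor was left out in turn. It was negative when vehicle replicate 1 or WCE replicate 1 was left out or when limma's sample weights were used.

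The 2 genes did not keep a fixed proportion. S100A9 exceeded S100A8 in every tumor, by 13.7-, 7.76- and 5.09-fold in vehicle and by 5.12-, 13.8- and 11.1-fold in WCE. The ratio was high in both tumors with the least S100A8. Myeloid cells are a known source of both transcripts, and of 20 myeloid marker genes 3 passed the expression filter, CD68, ITGB2 and SPI1, and none of these had an unadjusted p under 0.05 in limma over all 6 tumors. When the near-identical pair was left out, CD68 had a log2 fold change of 0.57 (unadjusted p = 0.00712, adjusted p = 0.182) and SPI1 one of −0.66 (unadjusted p = 0.00644, adjusted p = 0.180). The summed level of the list was 33.8 to 51.9 FPKM in vehicle and 47.6 to 52.5 FPKM in WCE, lowest in vehicle replicate 1 but not low in WCE replicate 2. CD68 alone, at 25.3 to 43.9 FPKM, was most of this sum, so the sum mainly followed CD68. ITGB2 was at 6.04, 9.42 and 9.56 FPKM in vehicle and at 9.23, 5.85 and 6.64 FPKM in WCE. Its lowest tumors were WCE replicate 2 and vehicle replicate 1, as for S100A8 and S100A9, whereas SPI1 was lowest in vehicle replicate 3, at 0.576 FPKM. PTPRC, ITGAM, CD14, LYZ and CSF1R were each at most 0.666 FPKM. The part of myeloid cells in the values of S100A8 and S100A9 was not tested. The neutrophil receptor gene CSF3R and the myeloid genes FCN1 and TYROBP were listed at 0 in all 6 tumors. All these entries carry human gene symbols, whereas the myeloid cells of the host are mouse cells. Their values, also those at 0, therefore do not measure how many host myeloid cells a tumor held. How reads from mouse cells were treated is not given in the sources used here.

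**Figure D2:**
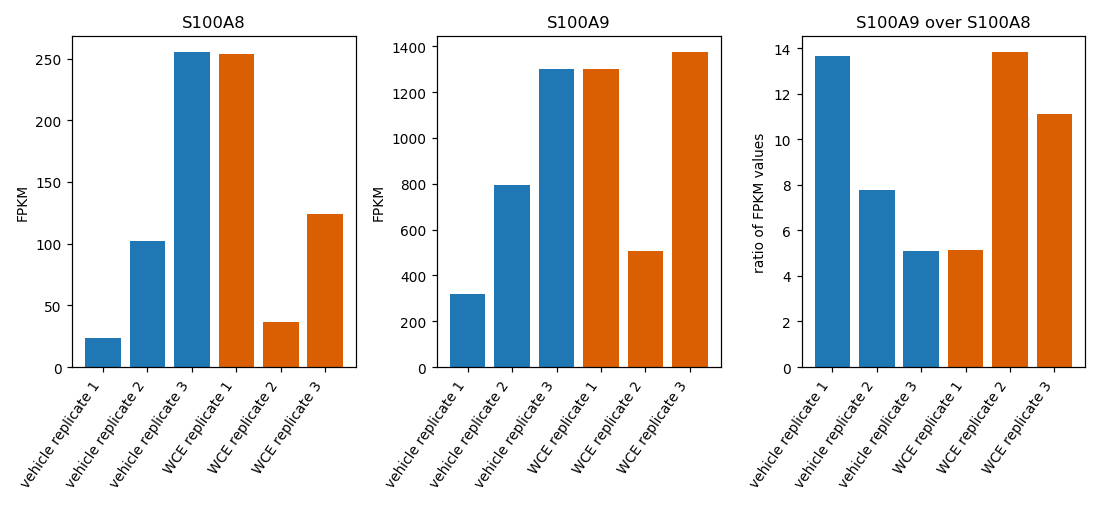
FPKM of S100A8 (left) and S100A9 (middle) and the ratio of S100A9 to S100A8 (right) in each tumor, vehicle in blue and WCE in orange, 1 bar a tumor and no error bars. Vehicle replicate 1 and WCE replicate 2 had the least of both genes and the highest ratios, 13.7 and 13.8.

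The promoter sequences of this pair are shown because these genes of the same cluster had the widest ranges over the 6 tumors among members with a mean of at least 10 FPKM. Each is the 250 bases before the first start listed by RefSeq on GRCh38.p14, on the strand of the gene. They lie at chr1:153391189-153391438 (minus strand) for S100A8 and chr1:153357604-153357853 (plus strand) for S100A9. RefSeq gave 3 promoters for S100A8 and 1 for S100A9, and only the first of each gene was searched. Capitals mark the matches to a TATA box (TATAAA) and a GC box (GGGCGG), searched on both strands with TGANTCA, the AP-1 motif, and an NFκB consensus.
S100A8: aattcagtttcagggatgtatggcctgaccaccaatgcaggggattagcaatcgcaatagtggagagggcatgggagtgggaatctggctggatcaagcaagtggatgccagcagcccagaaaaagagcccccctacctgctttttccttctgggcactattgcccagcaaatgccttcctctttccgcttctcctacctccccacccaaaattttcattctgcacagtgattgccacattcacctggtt
S100A9: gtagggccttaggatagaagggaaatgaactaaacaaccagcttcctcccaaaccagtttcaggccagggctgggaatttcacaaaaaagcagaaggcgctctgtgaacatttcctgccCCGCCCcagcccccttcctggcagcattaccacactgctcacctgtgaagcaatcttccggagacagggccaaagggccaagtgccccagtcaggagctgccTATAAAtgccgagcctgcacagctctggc
S100A9 had a TATAAA that began 29 bases before the start and a GC box 131 bases before it. None of the 4 motifs was found in this window of S100A8, and its other listed promoters are not described here.

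Among promoters of 250 bases over all genes of the same RefSeq table, 35116 in number, TATAAA was found in 10.7%, GGGCGG in 42.6%, TGANTCA in 6.57% and the NFκB consensus in 5.21%. Promoters could be matched for 29 of the 32 gene symbols, all but ANXA13, ANXA8 and S100B, and the first listed of each was used. TATAAA was found in 8 of 19 S100 promoters and 4 of 10 annexin promoters, among them S100A4, S100P, ANXA1 and ANXA2. GGGCGG was found in 6 of 19 and 5 of 10, and TGANTCA in 3 of 19, S100A2, S100A3 and S100A12, and in 1 of 10, ANXA2. The NFκB consensus was found in 1 S100 promoter, that of S100A14, and in 0 of 10 annexin promoters. These matches describe the letters in the window only.

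S100A10, also called p11, is the exception of the family in that its loops no longer bind calcium, and it binds annexin A2 permanently. It was at 523, 692 and 733 FPKM in vehicle and at 729, 472 and 525 FPKM in WCE, with overlapping groups and a log2 fold change of −0.19 (SE 0.20, unadjusted p = 0.376 in limma) that was −0.27 without the near-identical pair (unadjusted p = 0.175). ANXA2, its partner, was among the steadiest members, at 1024, 1015 and 1144 FPKM in vehicle and at 1141, 1094 and 1079 FPKM in WCE. The FPKM ratio of S100A10 to ANXA2 was therefore set mostly by S100A10, and ran from 0.431 in WCE replicate 2 to 0.682 in vehicle replicate 2. Processed pseudogenes of ANXA2 share its sequence, and how the authors placed such reads is not stated.

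S100A14, an epithelial S100 gene next to S100A16, had the largest negative fold change of the S100 genes tested. It was at 300.1, 526 and 306 FPKM in vehicle and at 321, 166 and 249 FPKM in WCE. WCE replicates 2 and 3 were below all vehicle tumors and WCE replicate 1 was not. The log2 fold change was −0.62 (SE 0.29, unadjusted p = 0.0690 and adjusted p = 0.623 in limma), and without the near-identical pair it was −0.96, with an unadjusted p of 0.0307 and an adjusted p of 0.231. The epithelial surface genes EPCAM and CDH1 were also lower in mean FPKM in WCE, with log2 fold changes of −0.73 (unadjusted p = 0.00889, adjusted p = 0.623) and −0.47 (unadjusted p = 0.0253, adjusted p = 0.623) in limma, and of −1.08 and −0.68 without the pair (unadjusted p = 0.000551 and 0.000936, adjusted p = 0.173 for both). The epithelial keratin genes KRT8 and KRT18 had log2 fold changes of 0.05 and 0.10 (unadjusted p = 0.695 and 0.446 in limma). Of the 7 PC-3 markers tested, 5 had a positive fold change and 2, EPCAM and CDH1, a negative one. TMPRSS2 had 0.52 (unadjusted p = 0.0986 in limma), and 0.77 without the pair (unadjusted p = 0.0765). VIM had 0.41 (unadjusted p = 0.0673 in limma), and 0.63 without the pair (unadjusted p = 0.0304, adjusted p = 0.230). The part of these markers in the values of S100A14 was not tested.

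S100A4, also called metastasin, binds nonmuscle myosin IIA and is known for its link to cell motility. It was at 88.0, 264 and 259 FPKM in vehicle and at 245, 148 and 129.6 FPKM in WCE. Vehicle replicate 1 was the lowest of the 6 tumors and vehicle replicates 2 and 3 the highest, so the vehicle group enclosed the WCE group. The log2 fold change was −0.12 (SE 0.44, unadjusted p = 0.790 in limma), −0.14 without the near-identical pair, and −0.64 with an unadjusted p of 0.0493 when vehicle replicate 1 was left out. S100P, a placental S100 protein that is released and binds RAGE, was at 38.7, 47.7 and 66.4 FPKM in vehicle and at 76.9, 20.4 and 46.6 FPKM in WCE. Here the WCE group enclosed the vehicle group, and the log2 fold change was −0.24 (SE 0.43, unadjusted p = 0.600 in limma), and −0.46 without the near-identical pair (unadjusted p = 0.280).

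S100A13, which takes part in the release of fibroblast growth factor 1 without a signal peptide, and S100A1, best known from heart muscle, were higher in every WCE tumor than in every vehicle tumor. S100A13 was at 290.3, 411 and 400.4 FPKM in vehicle and at 427, 467 and 427 FPKM in WCE, a log2 fold change of 0.28 (SE 0.15, unadjusted p = 0.103 in limma). S100A1 was at 2.68, 3.96 and 3.81 FPKM in vehicle and at 4.92, 4.49 and 4.02 FPKM in WCE, a log2 fold change of 0.30 (SE 0.15, unadjusted p = 0.0795 in limma). Both are listed at the same locus, 153591276 to 153618782 on chromosome 1, which CHTOP overlaps, so their values may share reads and are uncertain. The exact permutation p of each was 0.10, two-sided, the smallest that 3 against 3 tumors can give. Without the near-identical pair the log2 fold changes were 0.37 for S100A13 and 0.30 for S100A1 (unadjusted p = 0.111 and 0.167 in limma).

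S100A3 was between 10.99 and 24.1 FPKM and S100A5 between 0.872 and 4.88 FPKM, both lowest in vehicle replicate 1. S100A7, or psoriasin, was listed at 0 in 3 tumors and reached 2.52 FPKM in WCE replicate 1, and its near copy S100A7A, with which it can share reads, did not exceed 0.014 FPKM. The vitamin D-regulated S100G was at most 0.789 FPKM, and S100A12, which encodes a further neutrophil S100 protein, at most 0.236 FPKM. S100Z was at most 0.131 FPKM, and S100B, the S100 gene of glia and melanocytes, was listed at 0 in all 6 tumors. These last 5 S100 genes, S100G, S100A12, S100Z, S100A7A and S100B, were below the mean of 0.5 FPKM needed for a test.

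In the order of mean FPKM, most S100 neighbours overlapped in range over the 6 tumors. S100A2 lay above S100A11 without overlap, as did S100A10 above S100A13 and S100A3 above S100A1. All other neighbouring pairs from S100A6 down to S100A5 overlapped in range, although S100A14 was above S100A4 and S100P above S100A3 within each of the 6 tumors. Among the annexins, ANXA2, ANXA5, ANXA7, ANXA1, ANXA11 and ANXA3 followed each other with no overlap between neighbours, ANXA3 and ANXA6 overlapped, and ANXA6 lay above ANXA4 with no overlap.

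ANXA5, the annexin whose binding to phosphatidylserine marks dying cells, was at 385, 357 and 342 FPKM in vehicle and at 334, 434 and 367 FPKM in WCE. ANXA7, also called synexin, was at 305, 297 and 324 FPKM in vehicle and at 329, 319 and 297 FPKM in WCE. Both differed little between any 2 tumors, and their log2 fold changes in limma were 0.06 (SE 0.12, unadjusted p = 0.649) and 0.03 (SE 0.095, unadjusted p = 0.764), or 0.11 and 0.03 without the near-identical pair. ANXA11, which binds S100A6 and tethers RNA granules to lysosomes, was at 104, 104 and 98.6 FPKM in vehicle and at 102, 121 and 119 FPKM in WCE. Its log2 fold change was 0.15 (SE 0.10, unadjusted p = 0.178 in limma), with only WCE replicate 1 inside the vehicle range, and 0.20 without the pair (unadjusted p = 0.0873). The FPKM ratio of S100A6 to ANXA11 ran from 25.0 in vehicle replicate 1 to 53.4 in vehicle replicate 2.

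ANXA1, the glucocorticoid-induced annexin that binds formyl peptide receptors, was at 222, 197 and 233 FPKM in vehicle and at 236, 136 and 174 FPKM in WCE. WCE replicates 2 and 3 were again the lowest tumors. The log2 fold change was −0.29 (SE 0.19, unadjusted p = 0.175 in limma), and −0.44 without the near-identical pair, with an unadjusted p of 0.0370 and an adjusted p of 0.247. The ratio of S100A11 to ANXA1 ranged only 1.29-fold over the tumors, from 4.79 to 6.18.

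ANXA3 and ANXA4 were the only members with an unadjusted p under 0.05 over all 6 tumors, and both were lower in WCE. ANXA3, known from migrating tumor and endothelial cells, was at 71.4, 70.2 and 63.4 FPKM in vehicle and at 61.5, 49.0 and 49.6 FPKM in WCE. All 3 WCE tumors were below all 3 vehicle tumors, with vehicle replicate 3 and WCE replicate 1 closest together. The mean was 68.3 ± 4.31 FPKM in vehicle and 53.4 ± 7.05 FPKM in WCE (SD, n = 3 each). This was a log2 fold change of −0.36 (SE 0.12) with an unadjusted p of 0.0172 and an adjusted p of 0.623 in limma. Its exact permutation p was 0.10. Without the near-identical pair the log2 fold change was −0.51 (SE 0.096, unadjusted p = 0.00278, adjusted p = 0.174). Leaving out vehicle replicate 2, WCE replicate 2 or WCE replicate 3 raised the unadjusted p to 0.0519, 0.0659 and 0.0679.

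ANXA4, an annexin of secretory epithelia that binds to membranes in ordered arrays, was at 36.7, 33.1 and 28.6 FPKM in vehicle and at 28.8, 24.8 and 25.9 FPKM in WCE. The groups overlapped only in the near-identical pair. The mean was 32.8 ± 4.08 FPKM in vehicle and 26.5 ± 2.09 FPKM in WCE (SD, n = 3 each). That gave a log2 fold change of −0.29 (SE 0.12, unadjusted p = 0.0403, adjusted p = 0.623 in limma), with an exact permutation p of 0.20. Without the near-identical pair it was −0.45 (unadjusted p = 0.00884, adjusted p = 0.190). Leaving out vehicle replicate 1 or 2 or WCE replicate 2 or 3 put the unadjusted p above 0.05, between 0.0924 and 0.124.

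The promoters of these annexins are given in the same way as the pair above, since they were the members with the lowest p over all tumors. They lie at chr4:78551520-78551769 for ANXA3 and chr2:69643558-69643807 for ANXA4, both on the plus strand, 250 bases before the first start that RefSeq lists on GRCh38.p14. Capitals mark GC boxes on either strand.
ANXA3: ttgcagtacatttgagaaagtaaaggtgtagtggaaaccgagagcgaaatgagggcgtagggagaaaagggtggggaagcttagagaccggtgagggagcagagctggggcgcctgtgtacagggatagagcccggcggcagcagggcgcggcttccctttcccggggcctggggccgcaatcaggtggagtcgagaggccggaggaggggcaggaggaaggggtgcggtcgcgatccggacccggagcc
ANXA4: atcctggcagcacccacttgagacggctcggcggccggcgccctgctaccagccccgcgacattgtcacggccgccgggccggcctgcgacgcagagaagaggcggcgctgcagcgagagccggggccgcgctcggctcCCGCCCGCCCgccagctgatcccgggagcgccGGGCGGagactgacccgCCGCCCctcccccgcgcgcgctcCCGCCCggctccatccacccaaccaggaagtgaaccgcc
ANXA4 held 5 GC boxes, the nearest 39 bases before the start and some overlapping, and this window of ANXA3 held none of the 4 motifs.

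ANXA6, the largest annexin, which has a doubled core, was at 60.0, 39.9 and 49.6 FPKM in vehicle and at 48.8, 56.8 and 63.7 FPKM in WCE, with overlapping groups and a log2 fold change of 0.19 (SE 0.17, unadjusted p = 0.292 in limma), or 0.29 without the near-identical pair (unadjusted p = 0.218). The 2 entries of ANXA8, near-identical copies between which reads may be split, were between 0.209 and 1.50 FPKM, and ANXA10 was between 0.131 and 1.63 FPKM. For these 3 entries the near-identical pair, vehicle replicate 3 and WCE replicate 1, held the highest values. ANXA9 was between 0.453 and 0.637 FPKM, and ANXA13, an annexin of the gut, was above 0 only in vehicle replicate 2, at 0.048 FPKM, and was not tested.

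Of the 33 entries, 27 had a mean of at least 0.5 FPKM and were tested, 15 S100 genes and 12 annexin entries. None of the 27 passed an adjusted p of 0.05 in limma, where 0.00753% of all 13287 entries tested did, and the lowest adjusted p of any member was 0.623. At an unadjusted p under 0.05 there were 2 of 27, ANXA3 and ANXA4, which is 7.41% and close to the 7.1% of all entries. Both were lower in WCE, as were 3.33% of all entries, and 0 members were higher at that threshold, beside 3.78% of all entries. Groups that did not overlap were found for 3 of 27 members, S100A1 and S100A13 higher and ANXA3 lower, against 12.8% of all entries (6.37% higher and 6.4% lower). The median log2 fold change was −0.06 for the S100 genes and 0.04 for the annexins, beside −0.01 for all entries, and 7 of 15 S100 genes and 8 of 12 annexin entries had a positive one. The sign of these medians rested on single tumors. Leaving out vehicle replicate 1 or WCE replicate 1 each gave an S100 median of −0.33, and it was 0.15, 0.13, 0.14 and 0.06 without vehicle replicate 2, vehicle replicate 3, WCE replicate 2 and WCE replicate 3, and 0.03 without the near-identical pair. The annexin median ran from −0.05 without WCE replicate 1 to 0.09 without vehicle replicate 3, was −0.03 without vehicle replicate 2, and was 0.03 without the pair.

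Without vehicle replicate 3 and WCE replicate 1, 5 of the 27 members had an unadjusted p under 0.05 in limma, which is 18.5% beside 18.4% of all entries. They were S100A2, S100A14, ANXA1, ANXA3 and ANXA4, and each was lower in WCE, as were 9.59% of all entries, while 8.84% of all entries and 0 members were higher. None passed the adjusted threshold, against 0.0376% of all entries. The groups of 2 did not overlap for 13 of 27 members, 6 higher and 7 lower, against 53.5% of all entries (25.7% higher and 27.8% lower).

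**Figure D3:**
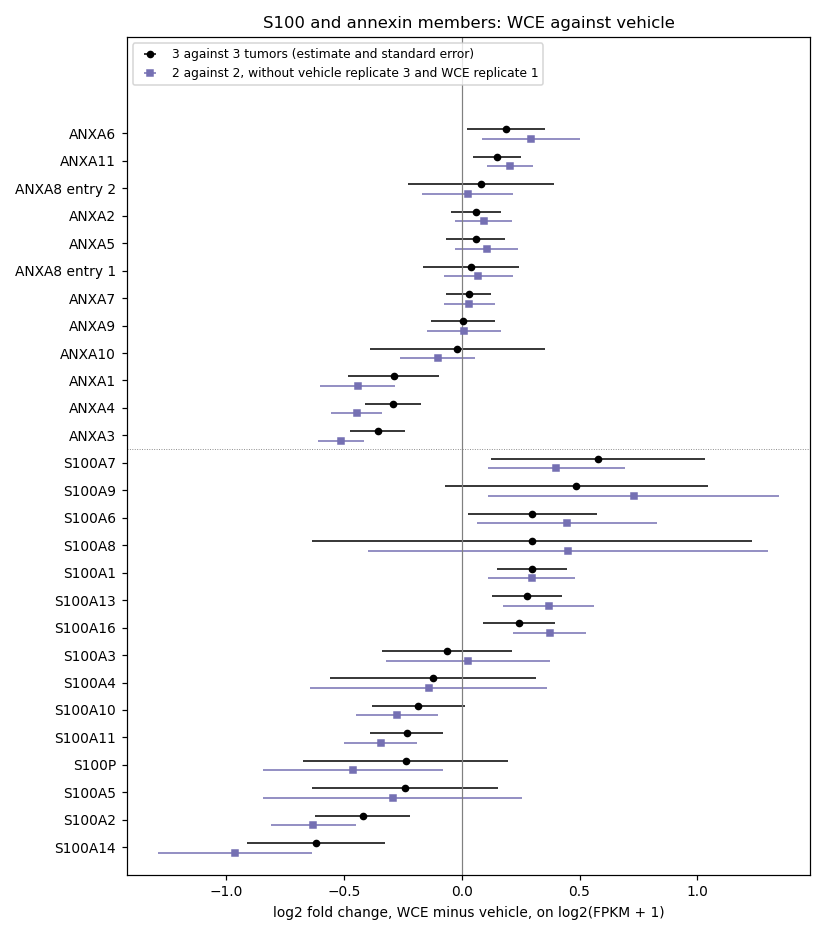
Log2 fold change of WCE over vehicle on the log2(FPKM + 1) scale for the 27 members tested, with all 6 tumors and without vehicle replicate 3 and WCE replicate 1, bars showing 1 SE and the dotted line parting the families. S100A8 has the widest error, 0.93 with all tumors, and ANXA3 moves from −0.36 to −0.51 when the pair is left out.

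The families differed more in how far the tumors spread than in the comparison between groups. Over 6887 entries with a mean of at least 10 FPKM and no value of 0, the log2 of the highest over the lowest tumor had a median of 0.43. All 12 S100 genes among these entries were above that median, from 0.56 for S100A11 to 3.46 for S100A8, with a median of 1.12. Of these 12, 7 were among the widest 5% of all entries, S100A6, S100A9, S100A14, S100A4, S100A8, S100P and S100A3. Only 0.116% of entries had a wider range than S100A8. The 8 annexins had ranges of 0.15 to 0.80 with a median of 0.46, 4 of 8 were above the median of all entries and 0 were in the widest 5%. ANXA7 and ANXA2 were among the steadiest, with 97.7% and 95.9% of entries wider.

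**Figure D4:**
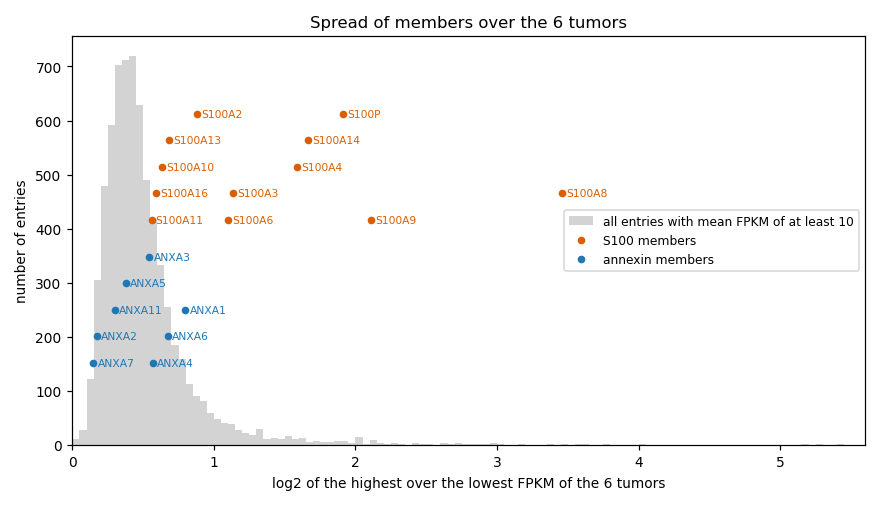
Log2 of the highest over the lowest FPKM of the 6 tumors for the 12 S100 and 8 annexin members with a mean of at least 10 FPKM (points, with arbitrary height) over a histogram of all 6887 such entries. The S100 genes lie between 0.56 and 3.46 and the annexins between 0.15 and 0.80.

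The wide S100 ranges came largely from the same tumors. Vehicle replicate 1 was the lowest tumor for 7 of the 12 S100 genes and WCE replicate 2 for the other 5, beside 18.6% and 17.1% of all 6887 entries. Vehicle replicate 2 was the highest for 6 of 12, beside 17.8% of all entries. Vehicle replicate 1 was the highest tumor for 36.3% of all entries but for 0 of the 12 S100 genes. Of the 8 annexins, 3 were lowest in WCE replicate 2 and 0 in vehicle replicate 1. These 2 tumors belong to different groups. For S100A8, S100A9, S100A4, S100P, S100A10 and S100A3 the SE of the group difference exceeded the size of the difference itself.

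The receptors of released S100 proteins and annexin A1 differed widely in level. BSG, ALCAM and MCAM, cell-surface proteins that bind S100 proteins, were at 277 to 349.8 FPKM, 111 to 133 FPKM and 26.2 to 39.6 FPKM. Their log2 fold changes were 0.07, −0.13 and −0.26 (unadjusted p = 0.587, 0.198 and 0.0770 in limma), and 0.08, −0.17 and −0.40 without the near-identical pair (unadjusted p = 0.610, 0.155 and 0.0252). AGER, the gene of RAGE, was between 1.43 and 2.24 FPKM (6 further entries of the gene were listed at 0). Its log2 fold change was −0.12 (unadjusted p = 0.425 in limma), and 0.03 without the near-identical pair (unadjusted p = 0.826). TLR4, the receptor that calprotectin can bind, was between 0.080 and 0.270 FPKM, FPR1 between 0.052 and 0.368 FPKM, FPR2 at most 0.034 FPKM and FPR3 between 0.255 and 0.498 FPKM, all below the filter and not tested.

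Of 54 genes listed as receptors or binding partners of either family, 43 were tested, and none passed the adjusted threshold. An unadjusted p under 0.05 was found for 5 of 43, or 11.6% beside 7.1% of all entries, 4 higher and 1 lower in WCE. MYH9, the heavy chain of nonmuscle myosin IIA that S100A4 binds, was at 87.5, 75.8 and 86.8 FPKM in vehicle and at 87.5, 111 and 116 FPKM in WCE, a log2 fold change of 0.32 (unadjusted p = 0.0422). FGFR1, a fibroblast growth factor receptor, was at 3.28, 5.71 and 7.35 FPKM in vehicle and at 7.65, 9.54 and 10.5 FPKM in WCE, a log2 fold change of 0.71 (unadjusted p = 0.0201). STAT6 had a log2 fold change of 0.38 (unadjusted p = 0.0259), and SUGT1, which S100A6 binds, −0.39 (unadjusted p = 0.0457). KDR, the endothelial VEGF receptor, had a log2 fold change of 1.14 (unadjusted p = 0.0345). It was at 0.216, 0.247 and 0.529 FPKM in vehicle and at 0.559, 1.59 and 5.12 FPKM in WCE. With a vehicle mean of 0.330 FPKM, KDR passed the filter of 0.5 FPKM only through the WCE tumors. Its place among the genes higher in WCE is thus not independent of the filter. All 5 had an adjusted p of 0.623 in limma. In 2 against 2 tumors, 10 of 43 had an unadjusted p under 0.05, or 23.3% beside 18.4% of all entries. Of these 10, 7 were higher and 3 lower in WCE. The log2 fold changes were then 0.48 for MYH9, 1.04 for FGFR1, 0.58 for STAT6, 1.69 for KDR and −0.65 for SUGT1. Their adjusted p ran from 0.174 to 0.190 in limma. The others were AHNAK with 0.54, TIAM1 with 0.55, PDCD6IP with 0.33, SRI with −0.33 and MCAM with −0.40. Their adjusted p ran from 0.179 to 0.221 in limma. The 14 endothelial and stromal markers, which do not include KDR, summed to 61.0 to 71.1 FPKM in vehicle and 55.7 to 86.6 FPKM in WCE, a sum led by the stromal genes COL1A1 (10.4 to 45.7 FPKM) and PDGFRA (3.97 to 32.6 FPKM). Of the endothelial genes, PECAM1 was highest in vehicle replicate 2, at 2.95 FPKM, and CDH5, VWF and TEK were each at most 0.089 FPKM. ENG was at 2.73, 1.55 and 1.92 FPKM in vehicle and at 1.60, 3.75 and 3.92 FPKM in WCE. Its log2 fold change was 0.38 (unadjusted p = 0.201 in limma), and 0.65 without the near-identical pair (unadjusted p = 0.0271, adjusted p = 0.224). KDR, like ENG, was highest in WCE replicate 3. These entries too carry human gene symbols, so they do not measure the vessels and stroma of the mouse host. The part of such cells in the value of KDR was not tested.

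The chromosome 1 cluster was also read against its other genes. Of 18 genes within or beside it that are no S100 genes, 13 were tested, and 3 had an unadjusted p under 0.05, all higher in WCE, or 23.1% beside 7.1% of all entries (3.78% higher). In the remaining 2 against 2 tumors there were 4 of 13, all higher, or 30.8% beside 18.4%. These were SNAPIN with a log2 fold change of 0.25 (unadjusted p = 0.0251), INTS3 with 0.29 (unadjusted p = 0.0267) and CRTC2 with 0.27 (unadjusted p = 0.0433), each with an adjusted p of 0.623 in limma. The median log2 fold change of the 13 was 0.14, and 0.19 without the pair, with 9 positive and 4 negative. The fused-type S100 genes of the epidermal differentiation complex, such as filaggrin, were below the filter in all 7 cases.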

How the data were processed

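RNA was sequenced from 3 vehicle and 3 WCE tumors, and columns were matched to tumors by the labels. The authors deposited FPKM values per gene entry in 1 table with the layout of a Cufflinks gene table, and the submitters' processing notes name TopHat2 2.0.13, Cufflinks and the builds hg19 and mm10. Other settings, and how mouse reads were handled, are not given in the sources used here.

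FPKM were transformed to log2(FPKM + 1), entries with a mean of at least 0.5 FPKM were kept (13287 of 24000), and limma 3.58.1 (R 4.3.3) tested WCE against vehicle (mean-variance trend, two-sided) with Benjamini-Hochberg adjustment over all entries kept. The fit was tested on simulated data. Exact permutation tests enumerated the 20 groupings. Python 3.11.15, pandas 2.3.3, numpy 2.4.6 and matplotlib 3.10.9 made the tables and figures. Depth in reads is unknown, hence intervals for counting error could not be set.

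The members and all gene lists were chosen with earlier results of these data known. Values in each tumor are given for members with an unadjusted p under 0.05, the 5 highest of each family, the partner pairs, S100A4 and S100P. BSG, ALCAM, MCAM and single markers of each cell type were named after their values were seen. Values in each tumor for S100A13, S100A14, S100A1, ANXA6, MYH9 and FGFR1 were added after they were seen. Promoters were the first row of each symbol in a RefSeq table (GRCh38.p14). Alternatives were the pseudocount, filter, scaling, trend, moderation, sample weights, a replicate block and left-out tumors.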

Additional observations from a re-analysis of the deposited data

How the results depend on the processing

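Counts at an unadjusted p under 0.05 moved with sample weights and with the tumors used. Main counts were 944 for all entries, 2 for the members and 5 for the receptors and binding partners. With limma's sample weights they were 3201, 9 and 13, without moderation 593, 1 and 1, and without vehicle replicate 3 and WCE replicate 1 they were 2449, 5 and 10. With each tumor left out in turn they ran from 219 to 2033, 0 to 7 and 0 to 10. The binding partners gave 3 with no filter and 3 with no trend. The cause was not tested. With replicate number as a block they were 1049, 2 and 6, but the labels do not say that equal numbers pair the tumors. Correlations of deviations from the group means were −0.24, 0.16 and −0.09 for equal numbers, and 0.36 for vehicle replicate 3 with WCE replicate 1. With 3 tumors a group, and that pair among them, these values cannot decide whether the numbers pair the tumors.

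Of the 27 members, 14 kept the sign of their fold change in every setting. It reversed to −0.084 for S100A8, −0.038 for the ANXA8 entry at 47157984 and −0.010 for ANXA7 with sample weights, and to 0.028 for S100A3 without the near-identical pair. With each tumor left out, log2 fold changes ran from −0.071 to 0.95 for S100A9, −0.62 to 1.08 for S100A8, −0.032 to 0.52 for S100A6, −0.70 to 0.13 for S100A5, −0.64 to 0.15 for S100A4, −0.41 to 0.12 for S100A3, −0.67 to 0.27 for S100P, −0.40 to 0.27 for ANXA10, −0.045 to 0.14 for ANXA5, −0.0022 to 0.072 for ANXA7, −0.050 to 0.047 for ANXA9, −0.21 to 0.32 for the ANXA8 entry at 48255225 and −0.10 to 0.21 for that at 47157984. With 3 tumors a group and unknown depth, small differences of low members such as ANXA9, ANXA10 and S100A7 could not be told from noise.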
